A study of Mus musculus with 696 samples.

Results

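The 8 genes described here are Plet1, Lgr6, Ntrk2, Fst, Sostdc1, Moxd1, Ptn and Smarca1. The set is named for stem cells in the junctional zone (JZ), the part of the upper hair follicle (HF) just above the bulge. It was chosen with earlier results of these data known. Shares over all genes given beside its counts are therefore background and no test of the set. All 8 had a row among the 15652 genes of the single-cell count table, and all 8 passed the filter on low counts that left 13853 genes for testing. The questions were how much of each transcript a plate of cells held, how many cells carried it, and whether it was lost during healing and returned afterwards. The cells were tail epidermal keratinocytes of adult female mice, strain CBA C57BL/6 mixed, that joined Lrig1-EGFP-ires-CreERT2 to a reporter allele, Rosa26-fl/STOP/fl-tdTomato, and every group, unwounded skin included, carried these alleles and had received 1 topical application of hydroxytamoxifen on the tail. Cre was driven by the Lrig1 promoter, so tdTomato marks Lrig1 cells at labelling and whatever they became later, and sorted cells need not be stem cells any more. The groups were unwounded skin (0w, 179 cells), 1 week after a first full-thickness wound (1w pw1, 168 cells), 8 weeks after it (8w pw1, 172 cells) and week 9 in the labels, 1 week after a second wound at the same site (1w pw2, 177 cells). Each group was held on 2 plates, and the labels do not say whether the plates came from separate animals. The study's methods speak of independent single-cell experiments with several biological replicates each, without tying them to plates, so p-values measure only the spread between these plates.

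The JZ lies between the bulge, the sebaceous gland and the infundibulum, and its stem cells supply the gland, its duct and the infundibulum in undisturbed skin. After a wound, progeny of the upper HF move out into the interfollicular epidermis and help to close it. Stem cells of this region are held in place by signals they make and receive, among them Wnt signals tuned by R-spondin receptors, and activin and bone morphogenetic protein (BMP) signals limited by secreted antagonists. In these genes that machinery is represented by secreted factors (Ptn, Fst and Sostdc1), membrane receptors (Lgr6 and Ntrk2), a surface protein (Plet1), an enzyme (Moxd1) and a chromatin remodeller (Smarca1).

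Ptn (ENSMUSG00000029838.11) lies on the minus strand of chromosome 6 and Moxd1 (ENSMUSG00000020000.7) on the plus strand of chromosome 10, while Plet1 (ENSMUSG00000032068.14) lies on the plus strand of chromosome 9. The other genes lie on chromosomes 1 (Lgr6), 13 (Ntrk2 and Fst), 12 (Sostdc1) and X (Smarca1), so that only Ntrk2 and Fst share a chromosome, 58806569 to 59133970 and 114452290 to 114458951 in the GRCm38 annotation. Promoters of 6 of the 8 genes were matched by symbol in the RefSeq table for GRCm38.p6. The 250 bases before the start of transcription are shown for Ptn and Moxd1, the pair whose summed level was called lower at the healing time points, and for Plet1, whose level was not, with TATAAA and CCAAT matches on either strand in capitals (read as TTTATA and ATTGG on the other strand).
Ptn, chr6:36810180-36810429, minus strand: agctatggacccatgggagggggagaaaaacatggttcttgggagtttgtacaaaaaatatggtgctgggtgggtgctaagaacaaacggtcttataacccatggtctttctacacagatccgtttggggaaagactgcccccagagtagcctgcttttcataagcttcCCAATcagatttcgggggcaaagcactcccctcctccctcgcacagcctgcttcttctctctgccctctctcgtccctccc
Moxd1, chr10:24223267-24223516, plus strand: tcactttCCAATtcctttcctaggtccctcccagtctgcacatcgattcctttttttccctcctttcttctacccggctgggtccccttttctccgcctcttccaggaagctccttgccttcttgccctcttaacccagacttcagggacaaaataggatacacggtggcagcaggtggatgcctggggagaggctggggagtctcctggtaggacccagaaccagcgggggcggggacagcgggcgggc
Plet1, chr9:50494275-50494524, plus strand: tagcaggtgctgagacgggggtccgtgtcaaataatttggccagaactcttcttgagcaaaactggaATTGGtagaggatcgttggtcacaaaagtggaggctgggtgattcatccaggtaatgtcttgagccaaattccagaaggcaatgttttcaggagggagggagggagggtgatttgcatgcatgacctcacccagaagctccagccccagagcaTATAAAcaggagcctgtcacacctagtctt
In these windows TATAAA was found for Plet1 alone, 30 bases before the start, and 12.4% of the 32851 promoters of the table held it on either strand. CCAAT or its reverse was found once in each of the 3 windows, against 33.8% of all promoters. The share of G and C was 52.0% for Ptn, 58.4% for Moxd1 and 50% for Plet1, and the median of all promoters was 52.4%. These matches describe the sequence only, and RNA counts hold no measurement of the promoters.

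Plates held 79 to 91 cells and 12293182 to 19760820 estimated counts, and a cell held a median of 132595. Sums per plate weigh deep cells more, with up to 12.1% of the counts of a plate (8w pw1 replicate 2) from 1 cell, and in such a sum fewer cells of a type and less RNA per cell cannot be told apart. The shares of positive cells were taken at equal depth, from the 560 cells with at least 50000 counts. This cut was uneven, leaving out from 5 of 79 cells (1w pw1 replicate 2) to 37 of 87 (8w pw1 replicate 2). Shares over all cells, with no thinning, were taken as an alternative. A share of cells with a count does not separate fewer cells of a type from less RNA per cell either. Both plates of a time point share a letter in their titles that no other time point has, and whatever it marks, which the labels do not state, cannot be told apart from the time point. The labelled cell type was checked in CPM, counts scaled to a common plate total. All 7 markers of basal keratinocytes were present and summed to 2129 to 5083 CPM on every plate, while the 6 measured fibroblast markers summed to 2.01 to 31.6 CPM and the 4 immune ones to 0.264 to 52.8, and Pecam1 (109 to 1846 CPM) was the single endothelial marker above 0.261. Lrig1 itself stood between 17.0 and 45 CPM on every plate, with a log2 fold change of -0.23 ± 0.39 (SE) between healing and resting weeks (adjusted p = 0.859). Healing plates differed widely from resting ones in other respects: the 8 markers of differentiated epidermis summed to 18271 to 35966 CPM on the 4 plates of 1w pw1 and 1w pw2, and to 2924 to 6176 on the 4 plates of 0w and 8w pw1, and the 5 wound-activated keratins and S100 genes to 2315 to 22255 against 54.7 to 793. The 9 bulge markers summed to 387 to 1260 CPM on healing and 1109 to 2556 on resting plates, and the median share of mitochondrial counts per cell was 13.0% to 23.9% and 18.2% to 30.7%. Their part in the results below was not tested.

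Levels were compared between genes only per length, as CPM per kilobase of exon. At 0w the highest level was that of Moxd1, 112 ± 21.0 (SD, n = 2 plates, as for all values per time point), followed by Sostdc1 at 78.9 ± 17.5, Plet1 at 51.3 ± 12.1 and Ptn at 50.1 ± 9.64. Fst stood at 10.8 ± 0.654, Ntrk2 at 5.01 ± 4.44, Lgr6 at 2.15 ± 1.62 and Smarca1 at 0.0397 ± 0.0561. Neighbours in this order whose means lay closer than the sum of their SDs, and so did not differ beyond their spread, were Moxd1 and Sostdc1, Sostdc1 and Plet1, Plet1 and Ptn, and Ntrk2 and Lgr6. At 1w pw1 the order was another, with Plet1 first at 75.7 ± 16.1, Sostdc1 at 35.5 ± 18.9, Moxd1 at 26.6 ± 11.5 and Ptn at 4.95 ± 2.15 CPM per kilobase. At 8w pw1 Plet1 (137 ± 71.4) was followed by Sostdc1 (91.5 ± 52.4), Moxd1 (73.5 ± 10.3) and Ptn (39.1 ± 23.1), and at 1w pw2 Plet1 (92.0 ± 7.75) by Sostdc1 (44.3 ± 28.9), Moxd1 (29.3 ± 12.4) and Fst (9.25 ± 5.44). Plet1 thus ranked first per length at each time point after wounding, although its gap to Sostdc1 exceeded the sum of their SDs at 1w pw1 and 1w pw2 and not at 8w pw1.

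Ptn, which encodes the secreted heparin-binding growth factor pleiotrophin, was the gene of the set with the largest called difference. Its summed level was 148 and 195 CPM on the 2 plates of 0w, 11.8 and 22.2 at 1w pw1, 78.1 and 190 at 8w pw1, and 20.4 and 36.0 at 1w pw2. The 4 plates of the healing weeks, 1w pw1 and 1w pw2, all lay below the 4 plates of the resting weeks, 0w and 8w pw1, with no overlap. Between healing and resting weeks the log2 fold change was -2.79 ± 0.44 (SE), with an edgeR quasi-likelihood Benjamini-Hochberg adjusted p of 0.0149 over all genes tested. This call was lost when either plate of 1w pw1 was left out (adjusted p = 0.0886 for replicate 1 and 0.0524 for replicate 2) and when every cell was given equal weight (0.0716, log2 fold change -2.29), within a range of 8.07e-08 to 0.0886 over 14 alternatives.

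Moxd1, a monooxygenase of the copper-dependent dopamine beta-hydroxylase family, followed the same course. It measured 405 and 310 CPM at 0w, 111 and 59.1 at 1w pw1, 258 and 212 at 8w pw1, and 65.9 and 122 at 1w pw2. Healing plates again lay below resting plates without overlap. The log2 fold change between healing and resting weeks was -1.70 ± 0.36, with an edgeR adjusted p of 0.0493, just inside the threshold of 0.05. Leaving out any 1 of the 8 plates ended this call, with log2 fold changes from -1.96 to -1.49. The adjusted p was 0.131 and 0.0959 when replicates 1 and 2 of 0w were left out in turn, 0.114 and 0.220 for those of 1w pw1, 0.0954 and 0.0974 for those of 8w pw1, and 0.121 and 0.0762 for those of 1w pw2.

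Ptn and Moxd1 were the 2 of 8 genes called between healing and resting weeks, where 1.80% of the 13853 genes were called, 143 higher and 106 lower. At an unadjusted p below 0.05, 5 of the 8 were lower (Ptn, Moxd1, Lgr6, Ntrk2 and Sostdc1), against 8.09% of all genes, and DESeq2 called 4, adding Lgr6 and Ntrk2, against 7.3% of all genes it tested. Since the set was chosen with earlier results of these data known, these shares do not test it.

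**Figure D1:**
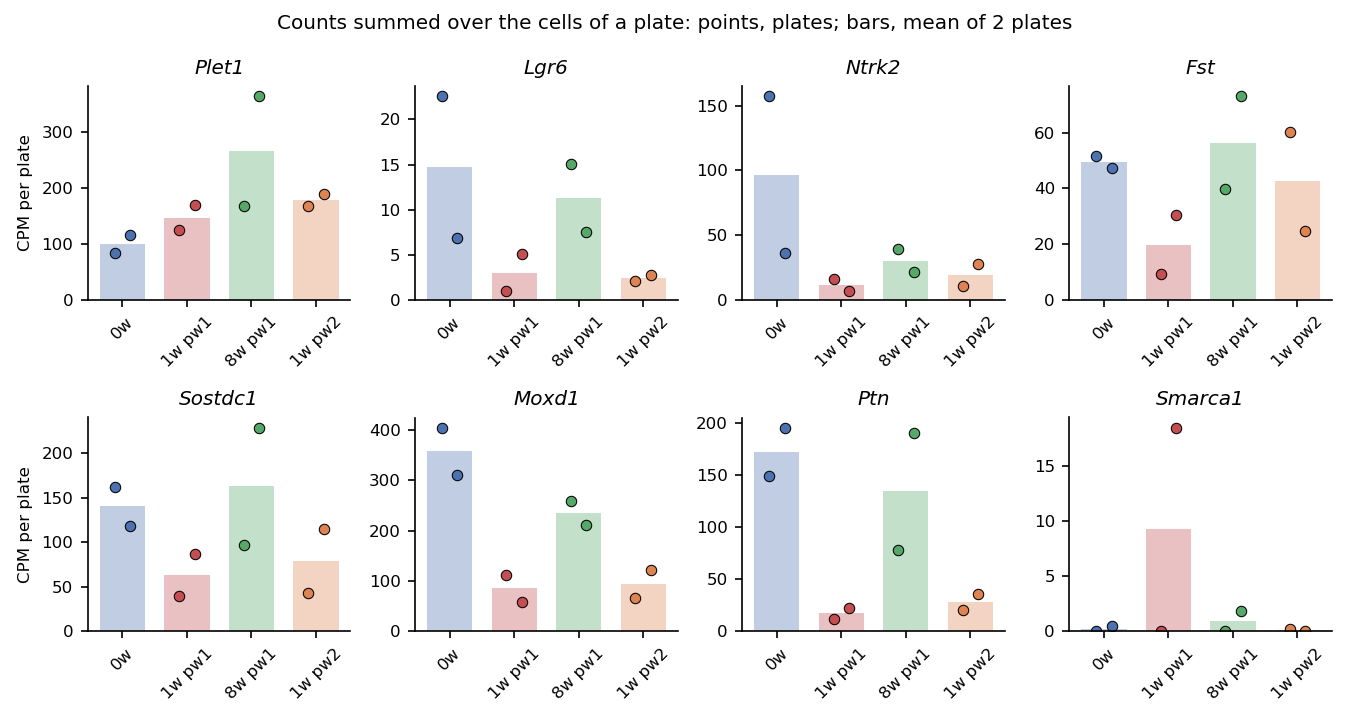
Summed level of each gene in CPM (vertical axis, linear, its own scale in each panel) at the 4 time points, with points for the 2 plates and bars for their mean. Ptn and Moxd1 stand lower on all 4 plates of 1w pw1 and 1w pw2 than on all 4 of 0w and 8w pw1, Plet1 does not, and the Smarca1 bar at 1w pw1 comes from 1 cell.

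Of the 2 secreted antagonists, Fst (follistatin, which binds activins) stood at 51.6 and 47.4 CPM at 0w, 9.22 and 30.4 at 1w pw1, 39.6 and 73.1 at 8w pw1, and 60.1 and 24.8 at 1w pw2. The plates of 1w pw2 straddled those of 0w, and 76.3% of the Fst counts of 1w pw2 replicate 2 came from 1 cell. Sostdc1, which limits BMP and Wnt signals, gave 163 and 118 CPM at 0w, 39.4 and 87.1 at 1w pw1, 97.0 and 229 at 8w pw1, and 42.5 and 115 at 1w pw2. Its highest healing plate lay above its lowest resting plate. The log2 fold change between healing and resting weeks was -0.86 ± 0.48 for Fst (adjusted p = 0.455) and -1.10 ± 0.46 for Sostdc1 (adjusted p = 0.301), neither of which passed.

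Lgr6, an R-spondin receptor of the Lgr family, was scarce: 22.6 and 6.85 CPM at 0w, 0.915 and 5.10 at 1w pw1, 15 and 7.57 at 8w pw1, and 2.03 and 2.75 at 1w pw2. All healing plates lay below all resting plates, but on 1w pw1 replicate 2 a single cell held 81.6% of the 87 counts. Ntrk2, the receptor tyrosine kinase for brain-derived neurotrophic factor, gave 157 and 36.1 CPM at 0w, 15.6 and 6.74 at 1w pw1, 38.9 and 21.2 at 8w pw1, and 10.4 and 27.8 at 1w pw2. The first plate of 0w stood far above the rest, and 53.0% of its Ntrk2 counts came from 1 cell. Between healing and resting weeks the log2 fold change was -2.26 ± 0.68 for Lgr6 (adjusted p = 0.140) and -1.88 ± 0.57 for Ntrk2 (adjusted p = 0.146). Ntrk2 was called when every cell was given equal weight (log2 fold change -1.89, adjusted p = 0.0454). Without 0w replicate 1 its log2 fold change was -1.18, and without 1w pw1 replicate 2 that of Lgr6 was -3.09.

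Plet1, a glycosylphosphatidylinositol-anchored surface protein of the upper HF, ran apart from the others. It measured 83.3 and 116 CPM at 0w, 125 and 170 at 1w pw1, 168 and 365 at 8w pw1, and 168 and 190 at 1w pw2. The 2 plates of 0w were the lowest of the 8, and the highest, 8w pw1 replicate 2, drew 41.2% of its counts from 1 cell. Healing and resting weeks differed by a log2 fold change of -0.01 ± 0.35 (adjusted p = 0.997). Smarca1, the ATPase of an ISWI chromatin remodelling complex, was counted in 6 cells of the whole series. On 4 plates no cell held a count (0 of 85 to 91 cells, which allows a share of up to 3.30% to 3.53% of cells, counting error only), and 316 of the 356 counts came from a single cell of 1w pw1 replicate 2. No direction was read from Smarca1.

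The loss after the first wound was asked with 1w pw1 against 0w. By edgeR 0 of the 8 genes were called, against 0.527% of all genes, while 4 were lower at an unadjusted p below 0.05 against 6.01% of all genes, and DESeq2 called 3 (Ptn, Moxd1 and Ntrk2) against 5.29%. With the replicate number as a block, edgeR called Ptn (adjusted p = 0.00819), 1 of 8 against 1.7% of all genes. The 4 lower ones were Ptn at -3.34 ± 0.63 on the log2 scale (adjusted p = 0.0556), Ntrk2 at -3.11 ± 0.85 (0.170), Moxd1 at -2.07 ± 0.52 (0.134) and Lgr6 at -2.29 ± 0.96 (0.388). Without 0w replicate 1 the values were -1.73 for Ntrk2 and -1.22 for Lgr6, with unadjusted edgeR p of 0.0643 and 0.291. Ptn was just outside the threshold, and it was called when replicate 1 (adjusted p = 0.0417) or replicate 2 (0.0435) of 8w pw1, plates outside this contrast that share its estimate of the spread, was left out. Fst and Sostdc1 had log2 fold changes of -1.32 ± 0.69 and -1.15 ± 0.65, and Plet1 one of 0.56 ± 0.50.

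The return was asked with 8w pw1 against 1w pw1. Again edgeR called 0 of 8, against 0.115% of all genes, with 2 higher at an unadjusted p below 0.05 against 6.40% of all genes, and DESeq2 called Ptn alone, against 4.42% of all genes. With the replicate number as a block, edgeR called Ptn too (adjusted p = 0.0260), against 0.794% of all genes. Without the block Ptn was at 2.98 ± 0.62 on the log2 scale (adjusted p = 0.125, and 2.15 when 8w pw1 replicate 2 was left out) and Moxd1 at 1.47 ± 0.51 (0.331). For the other genes with counts in more than a few cells the log2 fold change lay between 0.86 (Plet1) and 1.91 (Lgr6), and none had an unadjusted p below 0.05. Without 8w pw1 replicate 2 Plet1 stood at 0.14 and Sostdc1 at 0.56. Without 1w pw1 replicate 1 Lgr6 stood at 1.11, Fst at 0.87 and Ntrk2 at 2.12. Without 1w pw1 replicate 2 Lgr6 stood at 3.58, Fst at 2.59 and Sostdc1 at 2.03. How complete the return was is given by 8w pw1 against 0w, where edgeR called 0% of all genes and 0 of 8, and DESeq2 called 0 of 8, against 1.22% of all genes. The log2 fold change was -0.36 ± 0.58 for Ptn, -0.61 ± 0.50 for Moxd1, -0.38 ± 0.91 for Lgr6, -1.69 ± 0.80 for Ntrk2, 0.19 ± 0.67 for Fst and 0.21 ± 0.65 for Sostdc1. Plet1 was the exception, at 1.42 ± 0.50 and an unadjusted p of 0.0182 by edgeR (adjusted p = 0.70), the 1 of 8 below 0.05 and higher, against 3.81% of all genes. Single plates carried much of these values: without 8w pw1 replicate 2 they were 0.69 for Plet1 (unadjusted edgeR p = 0.225), -1.20 for Ptn and -0.59 for Sostdc1, and without 0w replicate 1 they were -0.34 for Ntrk2 and 0.65 for Lgr6. These standard errors leave room for differences of over a doubling in at least 1 direction, so an equal level was not shown.

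The second wound gave 1w pw2 against 8w pw1. EdgeR called 0 of 8, against 0.00722% of all genes (1 gene), and 3 were lower at an unadjusted p below 0.05, against 4.30% of all genes, while DESeq2 called Ptn alone, against 2.15% of all genes. They were Ptn at -2.25 ± 0.61 (adjusted p = 0.390), Moxd1 at -1.33 ± 0.51 (0.579) and Lgr6 at -2.24 ± 0.96 (0.604), and without 8w pw1 replicate 2 Ptn stood at -1.42. Against 0w, 1w pw2 had 0 of 8 genes called (0.267% of all genes), 4 lower at an unadjusted p below 0.05 (5.73% of all genes) and 3 called by DESeq2 (Ptn, Moxd1 and Ntrk2, against 5.01% of all genes). The replicate block brought Ptn to a call there (adjusted p = 0.0275), against 0.693% of all genes. Ptn stood at -2.61 ± 0.61, Moxd1 at -1.93 ± 0.52, Ntrk2 at -2.34 ± 0.82 and Lgr6 at -2.62 ± 0.97 in that comparison, the latter pair at -0.96 and -1.55 without 0w replicate 1. These contrasts share plates with those of the first wound, so their likeness is no separate evidence. Whether the second response differed from the first was tested directly, by subtracting the first healing contrast (1w pw1 against 0w) from the second (1w pw2 against 8w pw1). No gene was called (0% of all genes), nor any of the 8 by DESeq2 (0.613% of all genes), and the 1 gene of 8 lower at an unadjusted p below 0.05 was Smarca1, which rests on 1 cell, against 2.94% of all genes. The difference was 1.09 ± 0.82 for Ptn, 0.75 ± 0.71 for Moxd1, 0.05 ± 1.32 for Lgr6 and 2.46 ± 1.13 for Ntrk2.

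**Figure D2:**
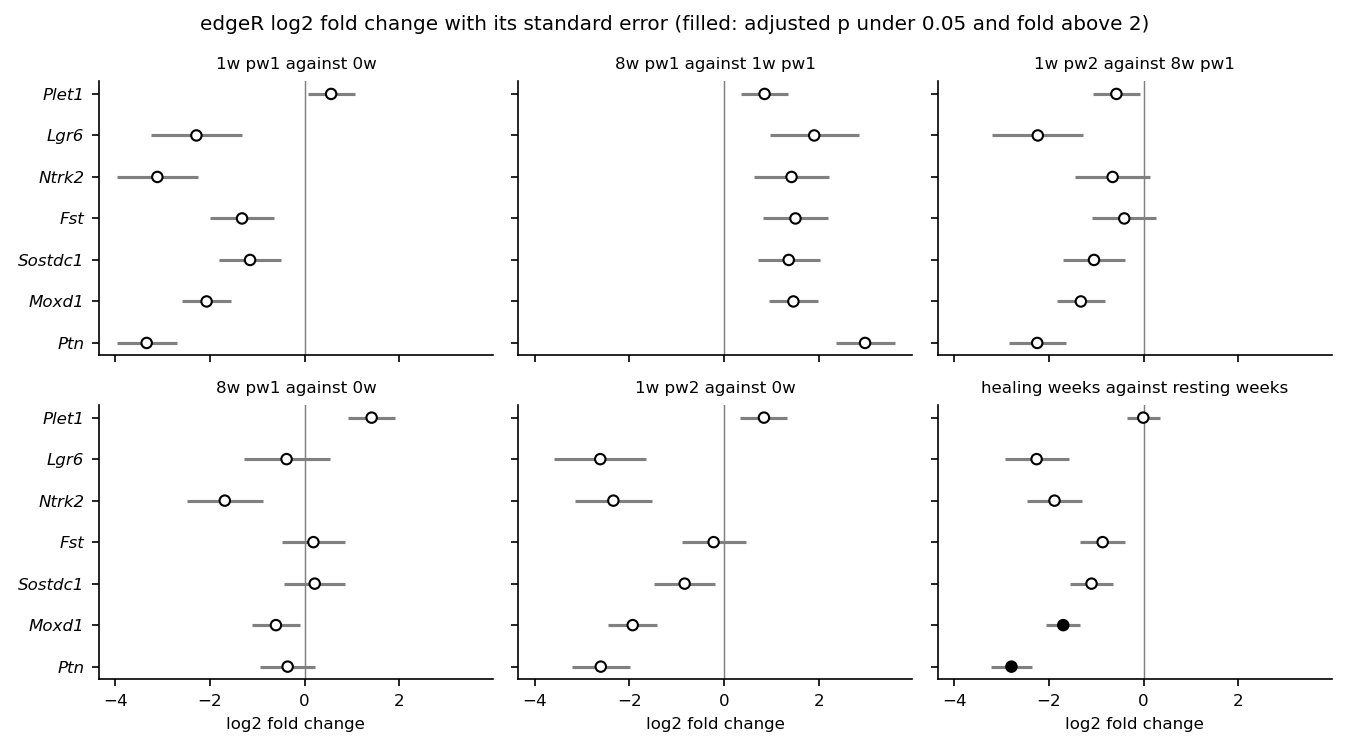
edgeR log2 fold change of 7 genes (horizontal axis, Smarca1 left out) with its standard error in 6 contrasts, filled where called. Points lie left of 0 for Ptn, Moxd1, Lgr6 and Ntrk2 in every contrast of a healing week against a resting week, and the 2 filled points are Moxd1 and Ptn in healing against resting weeks.

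Positive cells were counted after every cell was thinned to 50000 counts, and a cell was positive for a gene at 1 or more counts. Moxd1 was the most widespread at 0w, in 75.5% and 74.4% of the cells of the 2 plates. It was in 31.7% and 26.4% at 1w pw1, 68.7% and 60.3% at 8w pw1, and 31.3% and 28.7% at 1w pw2. Ptn was in 54.0% and 53.2% of cells at 0w, 9.59% and 18.1% at 1w pw1, 37.2% and 31.6% at 8w pw1, and 23.7% and 22.0% at 1w pw2. For both genes all healing plates lay below all resting plates. For Ptn, Moxd1, Ntrk2, Fst and Sostdc1 both plates of 8w pw1 also lay below both of 0w (2 plates against 2, too few for an exact test to reach 0.05), against 19.3% of all tested genes, while for Lgr6, Plet1 and Smarca1 the plates overlapped. Sostdc1 overlapped too with no thinning (62.1% on 8w pw1 against 60.4% on 0w) and at 20000 counts (56.03% against 55.86%), and Fst at 5 or more counts (17.5% against 14.2%).

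Over the 4 healing plates Moxd1 was in 29.5% ± 2.46 (SD) of cells and over the 4 resting plates in 69.7% ± 6.96, and Ptn in 18.3% ± 6.28 against 44.0% ± 11.3. Sostdc1 was in 41.3% ± 4.08 of healing against 61.8% ± 7.72 of resting cells, Fst in 14.9% ± 5.68 against 29.2% ± 7.45 and Lgr6 in 5.36% ± 2.50 against 14.6% ± 1.67. In these 5 of 8 genes the groups did not overlap (two-sided exact permutation test, p = 0.0286 in each, unadjusted over 8 tests and the smallest p that 4 plates against 4 can give), against 4.61% of all tested genes whose 4 healing plates all lay below. The exact tests exchange plates regardless of replicate number, although plates with the same number deviated together. Exchange within a number, which was not run, has fewer arrangements and a larger smallest p. Ntrk2 was in 16.4% ± 3.28 against 28.7% ± 9.18 of cells (exact p = 0.0571), its highest healing plate (21.1%) above its lowest resting plate (19.3%). Plet1 was in 48.0% ± 6.56 against 46.9% ± 9.10 of cells, a difference smaller than the spread between plates (exact p = 0.886), and Smarca1 by 0.317% against 1.12% (exact p = 0.429). Over all tested genes the median of that difference was 0.362 percentage points. The count of 5 genes was 3 when any 1 of the 4 healing plates (replicate 1 or 2 of 1w pw1 or of 1w pw2) was left out, each time with Fst and Ptn at an exact permutation p of 0.0571, although their remaining plates did not overlap. Fst also missed the threshold without 0w replicate 1 (0.0571), with no thinning (0.0571) and at 5 or more counts (0.0571), and Ntrk2 passed without 8w pw1 replicate 2 (0.0286) and at 5 or more counts (0.0286).

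**Figure D3:**
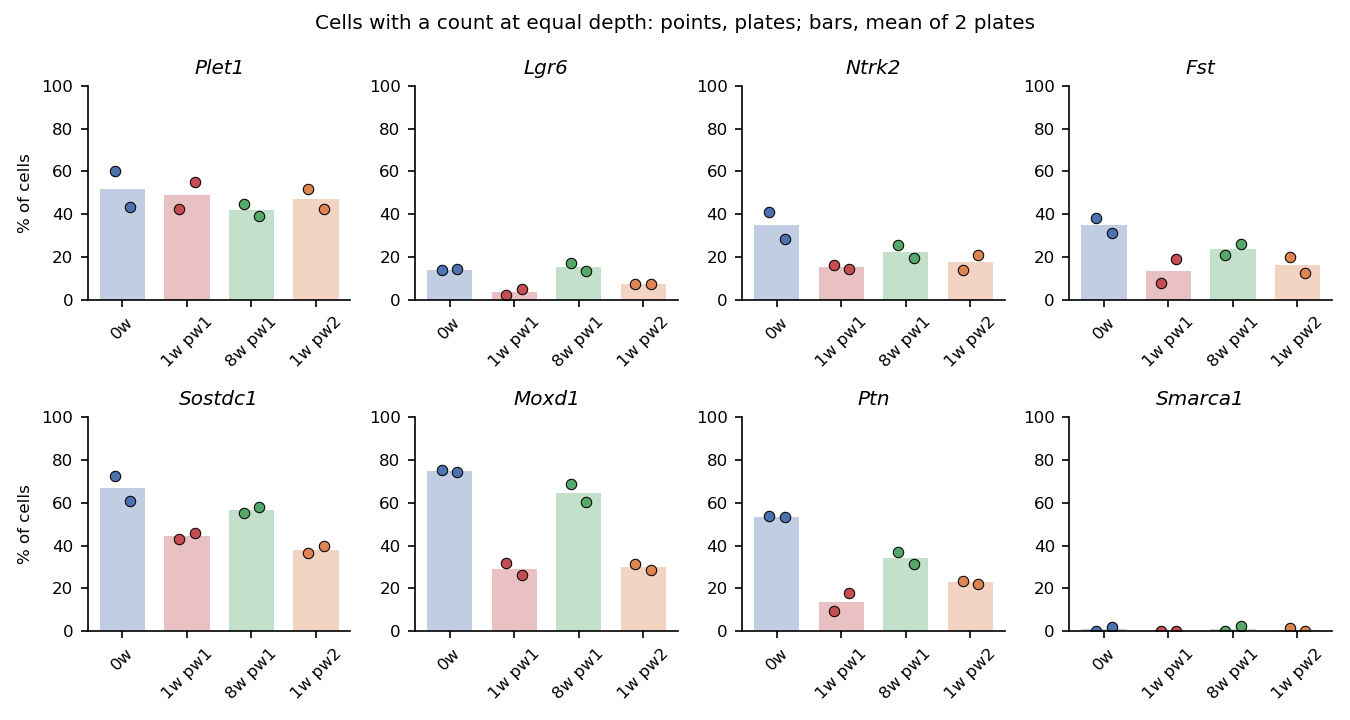
Share of cells with at least 1 count of each gene at 50000 counts per cell (vertical axis in percent, 0 to 100 in every panel), with points for the 2 plates of a time point and bars for their mean. The Moxd1 bars stand at 29.1% at 1w pw1 and 64.5% at 8w pw1, the healing and the resting week after the first wound, while Plet1 stays between 39.3% and 60.1% on all plates.

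Levels among the positive cells alone were lower too for some genes. The plate median of log2 CPM in Moxd1-positive cells was 8.46 and 8.45 at 0w, 6.18 and 6.58 at 1w pw1, 8.02 and 8.30 at 8w pw1, and 6.92 and 6.90 at 1w pw2. Between healing and resting weeks it differed by -1.66 for Moxd1, -1.44 for Ntrk2 and -1.72 for Ptn (two-sided exact permutation test, p = 0.0286 in each, unadjusted over 7 tests). Healing plates lay below resting plates in all 3, for Ptn narrowly, 7.32 on 1w pw2 replicate 2 against 7.33 on 8w pw1 replicate 1, and the same held for 3.81% of the 12351 tested genes with a positive cell on every plate. Leaving out any 1 of the resting plates took the exact permutation p of Ptn to 0.0571, and it was 0.0571 with cells thinned to 20000 counts and 0.0857 with no thinning. With at least 5 counts asked of a positive cell, Moxd1 alone of the 3 kept an exact p of 0.0286, and the difference was smaller in all 3, -0.58 for Moxd1, -0.22 for Ptn and 0.00 for Ntrk2. The level in positive cells of Lgr6 (-1.07, exact p = 0.0571), Sostdc1 (-0.77, 0.114), Fst (-0.65, 0.257) and Plet1 (-0.18, 0.400) did not pass.

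The genes were also counted together, in 1 draw of the thinning and without Smarca1. Cells with 5 or more of the 7 genes made up 28.6% and 22.4% of the 2 plates of 0w, 0% and 2.70% at 1w pw1, 15.9% and 14.0% at 8w pw1, and 0% and 1.33% at 1w pw2. Such cells were thus common on every resting plate and nearly missing from every healing plate, 37 of 144 cells at 0w, 2 of 147 at 1w pw1, 18 of 119 at 8w pw1 and 1 of 150 at 1w pw2. The mean number of the 7 genes in a cell was 3.33 in unwounded skin, 1.74 in the first healing week, 2.63 in week 8 and 1.77 in the second healing week. Lower shares of single genes by themselves make cells with 5 or more of them fewer. The number expected from those shares was not computed, so the count is no separate evidence of a cell type.

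**Figure D4:**
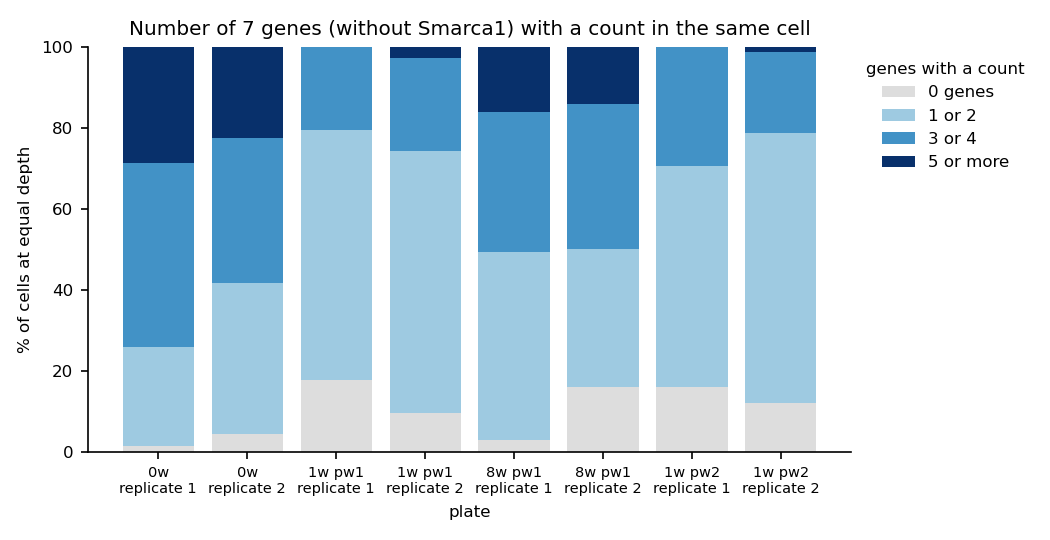
Stacked bars of the share of cells on each plate (vertical axis, percent of cells at equal depth) with 0, 1 or 2, 3 or 4, and 5 or more of the 7 genes. The darkest segment, 5 or more, takes 14.0% to 28.6% of the 4 resting plates and 0% to 2.70% of the 4 healing plates.

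Ptn-positive cells carried the other genes of the set more often than Ptn-negative cells did, Plet1 excepted. Of the 174 Ptn-positive cells 71.3% carried Moxd1, against 37.8% of the Ptn-negative cells, 69.5% against 44.0% carried Sostdc1, 40.2% against 14.5% Fst, 36.2% against 16.1% Ntrk2 and 19.0% against 6.74% Lgr6. Plet1 was in 44.8% of the Ptn-positive and 49.5% of the other cells. Markers of other compartments split the same way: Krt5, a keratin of basal cells, was in 90.8% of the Ptn-positive and 35% of the other cells, and Krt1, a keratin of differentiating cells, in 19.0% and 51.0%. In Plet1-positive cells Krt79, a keratin of the upper HF duct, was in 68.8% against 31.3% of the rest, and Gata6, a transcription factor of the duct, in 49.4% against 13.7%. All these shares pool cells of the 8 plates and are descriptions. Ptn, Moxd1, Sostdc1, Fst and Lgr6 were all more frequent on resting plates, so presence in the same cells and time point are not told apart.

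Genes most like each of the set were ranked by Pearson's r of log2(CPM + 1) over all cells of the series after plate means were taken out. Those of Plet1 were Cst6 (r = 0.55), Krt79 (0.52) and Defb6 (0.51). Those of Ptn were Krt5 (0.49), Cav1 (0.42) and Ftl1 (0.39), and those of Moxd1 Lgals9 (0.46), Ifitm3 (0.46) and Lamb3 (0.46). Adh7 (0.49) and Postn (0.38) stood nearest to Ntrk2 and, at 0.34 and 0.31, to Sostdc1, and Ntrk2 and Sostdc1 came next for each other (0.31). For Lgr6 they were Frem2 (0.32), Megf6 (0.31) and Ackr4 (0.31), and for Fst Timp3 (0.28), Dpysl3 (0.25) and again Ackr4 (0.25). Within the set Plet1 had an r between -0.10 and 0.06 with the 6 other genes seen in more than a few cells, and Ptn one between 0.15 and 0.24 with those other than Plet1. Cells share plates and differ in depth, and the r values are descriptions across cells. The 16 such genes outside the set were picked from these same cells, so their tests are no separate support for it. Of these 16, 3 were called lower in healing than in resting weeks and 0 higher (1.8% of all genes were called). At an unadjusted p below 0.05, 8 were lower and 2 higher, against 8.09% and 6.78% of all genes. The called ones were Ackr4 (log2 fold change -3.73 ± 0.41, edgeR adjusted p = 0.00436), Megf6 (-4.43 ± 0.84, 0.0298) and Adh7 (-1.79 ± 0.38, 0.0493), and the higher ones were Krt79 (0.83 ± 0.32, 0.259) and Dpysl3 (0.88 ± 0.36, 0.296).

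Cells were clustered with the 8 genes left out, which gave 13 clusters. Sostdc1, Ntrk2, Fst and Lgr6 were most frequent in cluster 3, led by Adh7, Serpina3g and Aldh3a1 and left unnamed, where at equal depth Sostdc1 was in 90.1% of cells, Moxd1 in 89.7%, Ptn in 83.5%, Ntrk2 in 72%, Fst in 64.3% and Lgr6 in 24.3%. Lgr6 was nearly as frequent in cluster 5, and Moxd1 and Ptn as frequent or more so in cluster 13. A bulge-like cluster (7, with Lgr5 and Aspn) had Moxd1 in 86.6%, Ptn in 67.6% and Sostdc1 in 66.8% of cells but Ntrk2 in 13.9% and Fst in 19.2%. A sebaceous gland-like cluster (5) had Moxd1 in 85.4% and Lgr6 in 24.0% of cells and Ptn in 17.1%, and a wound-activated-like cluster (6, with Krt6b and S100a9) had Moxd1 in 73.3%. Moxd1 and Ptn were thus not limited to 1 cluster, and both were also in most of the 18 cells used of a proliferating-like cluster (13), 89.7% and 88.6%. Plet1 was highest in cluster 8 (90.8%), left unnamed since Rptn, Klk10 and Asprv1 led it and it expressed as many differentiation as duct markers, and in the duct and infundibulum-like cluster 1 (89.0%), where Ptn was in 2.70% and 14.9%.

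**Figure D5:**
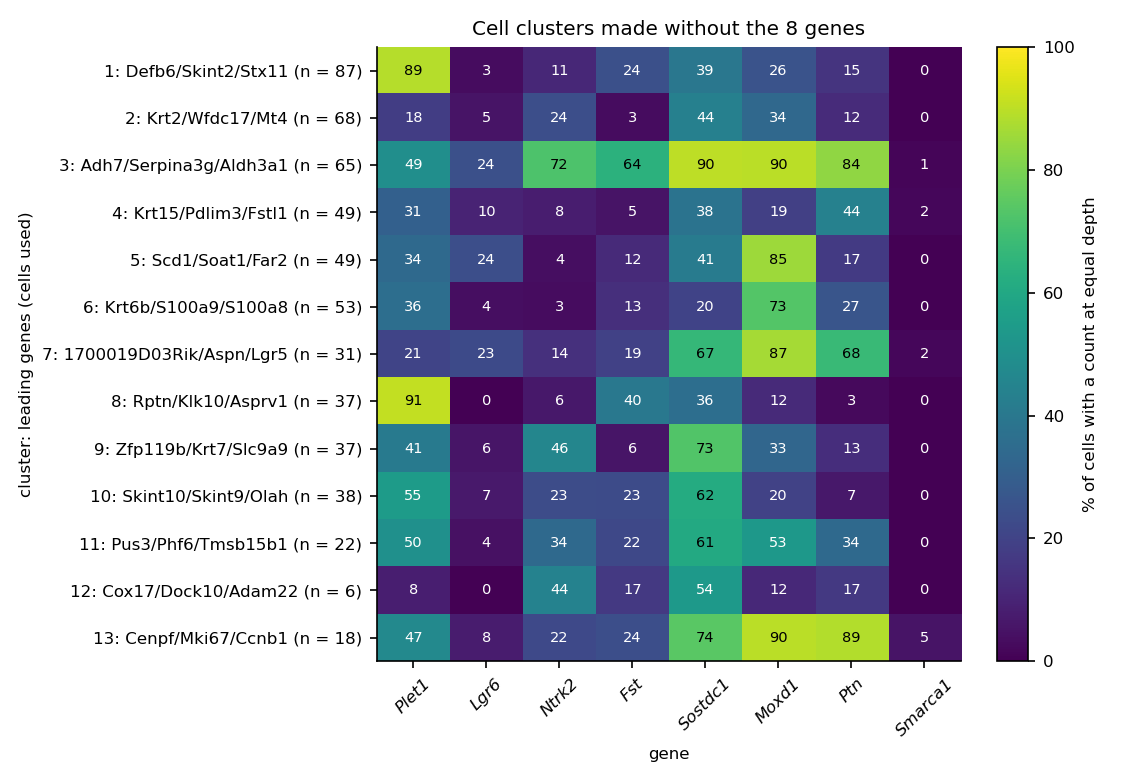
Share of cells with a count of each gene at equal depth (colour and number, percent) in the 13 clusters, named by their leading genes with the cells used. Cluster 3 is high in Sostdc1, Moxd1, Ptn, Ntrk2 and Fst together, and Plet1 is highest in clusters 1 and 8.

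Clusters 3 and 7 drew 124 of their 130 cells from resting plates, given here as a denominator, since genes that lead them differ between healing and resting weeks and their sizes are therefore not compared. Outside clusters 3 and 7, a choice made after the values were seen and left without a test, 464 cells remained. They included clusters drawn mainly from resting plates, cluster 5 (44 resting and 5 healing cells used) and cluster 11 (21 and 1). Clusters 6, 9 and 10, drawn mainly from healing plates, also remained. Moxd1 was in 29.1% ± 2.19 of the remaining cells on healing plates and 59.6% ± 7.66 on resting plates, without overlap (31.7% the highest healing and 50.8% the lowest resting plate). It was the 1 of 8 genes for which that held, against 3.25% of all genes. Ptn was in 17.6% ± 5.58 against 27.2% ± 10.5 with overlapping plates, Sostdc1 in 41.2% ± 4.21 against 50.7% ± 8.90, Fst in 14.9% ± 5.75 against 18.3% ± 6.38, Lgr6 in 5.10% ± 2.29 against 9.66% ± 4.73 and Ntrk2 in 16.7% ± 3.06 against 15.8% ± 8.85.

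In 4 clusters (1, 2, 4 and 8) at least 10 cells were used from both healing and resting plates, which allows the genes to be set side by side within a cluster, without a test since the cells share plates. Moxd1 was in 14.0% of healing and 70.4% of resting cells of the Krt2 cluster 2, in 20% and 42.3% of cluster 1, in 13.1% and 31.7% of the Krt15 cluster 4 and in 6.82% and 14.2% of cluster 8. The share of Moxd1 was lower on the healing side in all 4. The resting side of cluster 2 came from 30 cells of 8w pw1 and 3 of 0w. Without centring per plate, the cluster led by Wfdc17 and Krt2 had 60 cells, 2 of 8w pw1 replicate 1 and 0 of the other resting plates. Membership of cluster 2 thus depended on the centring, and cells set side by side in it may differ in type. The share of Ptn was lower on the healing side in 3 of the 4, at 12.6% and 21.6% in cluster 1, 6.02% and 24.0% in cluster 2 and 0% and 3.85% in cluster 8, and stood at 44.3% and 42.7% in cluster 4. Fst was in 30.1% of healing and 7.73% of resting cells of cluster 1, 3.30% and 3.13% of cluster 2, 7.21% and 1.0% of cluster 4 and 35.9% and 41.5% of cluster 8. Sostdc1 was higher on the healing side in cluster 2 alone (46.4% and 38.8%) and Lgr6 in cluster 4 alone (12.2% and 5.0%). The shares of Plet1 and Ntrk2 were lower on the healing side in all 4, Plet1 at 87.9% and 92.0% in cluster 1 and Ntrk2 at 23.8% and 24.2% in cluster 2. Mean levels did not always follow the shares. Despite a lower share, they were higher on the healing side for Ptn in cluster 1 (45.7 and 21.4 CPM) and Ntrk2 in cluster 4 (7.59 and 5.75). The same held in cluster 8 for Plet1 (1156 and 632) and Fst (187 and 105). For Sostdc1 in cluster 2 the level was lower on the healing side (71.9 and 103 CPM) despite a higher share. Ptn in cluster 4 was higher in both (130 and 88.6 CPM).

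Pathway partners were counted from lists drawn up around each gene. Of 20 tested R-spondin and Wnt genes around Lgr6, 2 were called lower between healing and resting weeks, and 8 were lower and 0 higher at an unadjusted p below 0.05, with a median log2 fold change of -0.76 against 0.00 for all genes. Over all genes 1.8% were called, 8.09% were lower and 6.78% higher at an unadjusted p below 0.05, and DESeq2 called 7.3%. These shares are background to this and the following lists. The lists were drawn up with earlier results of these data known, so their counts are descriptions and no test of a pathway. The called ones were Lgr5, the sister receptor of Lgr6 and a marker of the bulge and lower HF, and Wif1, a secreted Wnt inhibitor. Lgr5 gave 81.8 and 66.9 CPM at 0w, 5.43 and 9.67 at 1w pw1, 35.7 and 39.8 at 8w pw1, and 6.65 and 15.3 at 1w pw2 (log2 fold change -2.54 ± 0.42, edgeR adjusted p = 0.0186). Wif1 stood at 5.45 and 4.48 CPM at 0w, 0.0654 and 0.117 at 1w pw1, 10.2 and 12.2 at 8w pw1, and 0 on both plates of 1w pw2 (adjusted p = 0.00503). At 8w pw1 Lgr5 lay below its 0w plates and Wif1 above them. DESeq2 called 4 of this list lower.

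Of 19 tested activin and BMP genes around Fst and Sostdc1, 1 was called lower, Grem1, a secreted BMP antagonist, 3 were lower and 1 higher at an unadjusted p below 0.05, and DESeq2 called 2 lower and 1 higher. Its level was 54.4 and 2.59 CPM at 0w, 0.131 and 0 at 1w pw1, 12 and 2.81 at 8w pw1, and 0.560 and 0.324 at 1w pw2 (log2 fold change -6.36 ± 1.16, adjusted p = 0.0250). Inhba, which encodes the activin A subunit that follistatin binds, had an unadjusted p below 0.05 in the other direction (4.47 ± 1.04, adjusted p = 0.0682), at 0.104 and 0.0539 CPM at 0w, 1.31 and 0.762 at 1w pw1, 0.0720 and 0.718 at 8w pw1, and 2.03 and 31.1 at 1w pw2, where 1 plate stood far above the rest. The median of this list was 0.02. None of 7 tested neurotrophin genes, 8 pleiotrophin receptors and relatives, 12 ISWI partners and 3 copper monooxygenase partners was called by edgeR in this comparison, with 1, 2, 2 and 0 of them lower and 0, 0, 0 and 1 higher at an unadjusted p below 0.05. DESeq2 called 1 gene of each of these 4 lists, lower in the first 3 and higher in the last. Their median log2 fold changes were -0.81, -0.16, -0.25 and 0.57. Among them was Ptprs, a receptor of pleiotrophin, at 53.2 and 22.0 CPM at 0w, 3.79 and 1.46 at 1w pw1, 62.6 and 48.0 at 8w pw1, and 21.0 and 2.75 at 1w pw2 (log2 fold change -3.03 ± 0.67, adjusted p = 0.0545). By edgeR, 1 list gene was called in 1 other comparison, Wif1 in 1w pw2 against 0w (adjusted p = 0.0376).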

How the data were processed

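Tail keratinocytes of the Lrig1 lineage were sorted and sequenced by Smart-seq2, with no molecular identifiers. The authors deposited estimated counts per gene and cell, not normalised (96.6% of values whole), made with Salmon 0.13.1 on mm10/GRCm38 per the labels and already filtered on cells. How transcripts were summed to genes is not given in the sources used here, and 0 columns lacked a sample. Counts were summed per plate, rounded and tested with edgeR 4.0.16 in R 4.3.3 (all 8 plates in 1 fit, TMM, default filter, quasi-likelihood test). Calls needed an adjusted p under 0.05 and a fold above 2. CPM of single genes used TMM-scaled totals, and sums over marker lists plain totals. Scripts were tested on simulated data. DESeq2 1.42.0 and the alternatives of the closing section were run beside it. Healing weeks are the mean of 1w pw1 and 1w pw2, resting weeks that of 0w and 8w pw1. For positive cells, counts were thinned without replacement to 50000 per cell and averaged over 20 draws, a number set after a single draw was seen to vary. Clusters used scanpy 1.11.5 (Leiden, principal components centred per plate). Precision is limited by 2 plates per time point and by 79 to 91 cells per plate. The upper limit given for Smarca1 covers counting error only, while SE, SD and p-values rest on the spread between plates. Exon lengths come from the GENCODE annotation of GRCm38, matched by symbol. Text names the 8 genes, the list genes that passed, and the 3 genes most correlated with each among those counted in at least 35 cells. Members and lists were chosen with earlier results of these data known. The genes most like Smarca1 are left out, since it had counts in 6 cells, and a few other genes named were chosen after their values were seen.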

Additional observations from a re-analysis of the deposited data

How the results depend on the processing

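Over 14 alternatives to each fit and 11 to the cell shares no called value changed sign. Of 948 values of single genes, 897 kept their side of the threshold, 30 became weaker across it and 21 stronger. Most of these values belong to results that were not called, so the 897 say little about how stable the calls were. The count of called genes in 1w pw1 against 0w, 0 with edgeR, was 3 with DESeq2, 1 with no low-count filter and 1 with the deepest cell of every plate left out, and 0 to 1 when a plate was left out. In 8w pw1 against 1w pw1 and in 1w pw2 against 8w pw1 it was 1 with DESeq2, in 1w pw2 against 0w 3, and in healing against resting weeks 4, against 2 with edgeR and 0 to 1 when a plate was left out. With the replicate block it was 1 in 1w pw1 against 0w, 1 in 8w pw1 against 1w pw1, 1 in 1w pw2 against 0w (Ptn each time) and 2 in healing against resting weeks. Plates with the same number deviated together (r of 0.170 to 0.255 over 6 pairs of time points), but no label says what a number marks. Over all genes the block raised the calls in healing against resting weeks from 249 to 459 and DESeq2 to 1032. The 5 genes with fewer positive cells became 3 to 6 when a plate was left out, and the 3 with a lower level in positive cells became 1 at 5 or more counts and 2 to 3 when a plate was left out. Principal components not centred per plate, an alternative added after the data were seen, gave 11 clusters in place of 13. Levels of Lgr6 and Smarca1 are limited by depth, with 1068 and 356 counts in all, and a single cell of 1w pw1 replicate 2 carries Smarca1. The causes of these changes were not tested.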
